A study of Mus musculus with 4 samples.

Results

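Matrix proteases and their inhibitors were examined in cardiac mesenchymal progenitors (CMPs) before and after transduction of reprogramming factors. The members were all probes, control spots apart, that the array files name for an Mmp, an Adamts or a Timp gene. They came to 66 of 55681 probes and stood for 46 of the 22295 genes that could be named through RefSeq, of which 23 were Mmp genes, 19 Adamts genes and 4 Timp genes. CMPs were Sca-1+ cells from the hearts of adult wild-type C57BL/6 mice, taken from the atria and grown in serum with bFGF. The CMP control was untreated and labeled as day 0. OSKM-CMPs carried Oct4, Sox2, Klf4 and c-Myc from Sendai virus, given on the day before day 0, were moved to a reprogramming medium at day 0, and were collected at days 4, 6 and 8. Total RNA was read on single-color mouse arrays with 1 array for each of the 4 conditions. There was no replicate, so no test was made and no p-value is given. The control had a single time point and no empty virus, so the factors, the virus, the medium and the time in culture cannot be told apart. The number of animals behind each array was not given in the sources used here.

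Mmps are zinc proteases that are made as inactive precursors and between them cleave collagens, gelatin, proteoglycans and many cell surface proteins. Secreted Mmps act in the matrix, and membrane-type Mmps act at the cell surface. Adamts proteases are secreted as well, and their best known substrates are proteoglycans such as aggrecan and versican and the propeptides of fibrillar collagens. Timps bind active Mmps and block them, and Timp3 also blocks several Adamts proteases. In the heart these enzymes take part in remodeling of the matrix after injury, and in fat they take part in the remodeling that goes with growth of the tissue.

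Per array, 31495 to 33210 probes (56.6% to 59.6%) passed the scanner software's test for being well above background, and no spot was saturated. Signals are in arbitrary units, scaled so that the 75th percentile was the same on every array, and changes are log2 differences from the control array. An error after ± is 1 SD from the error model of the scanner software and covers the array only. All 11 CMP and mesenchymal markers were well above background on every array, and their summed signal went from 494429 in the control to 435692 at day 8. Col1a1 and Col1a2 made up most of that sum, with 112716 and 225350 in the control and 96054 and 208216 at day 8. Single markers moved more. At day 8, Ly6a, the gene of Sca-1, was higher by 2.69 and Nt5e by 2.10. Thy1, Itgb1 and Eng had changes of -1.78, -1.35 and -1.19, and the rest were within 2-fold. Of 8 adipocyte markers, 3 were well above background in the control and 8 at day 8, with a summed signal of 1994 and 139886. Of 6 endothelial markers, 6 were well above background in the control and 4 on each later array, where Cdh5 and Emcn were not. Of 4 smooth muscle markers, 3 were so on every array, and their summed signal was 231361 in the control and 7642 at day 8. Of 13 leukocyte markers, 10 or 11 were so on an array, with summed signals from 2333 to 2537, of which Elane made up 1054 to 1406, and Laptm5 not well above background on any. Within that list, S100a8 gave 2.40 in the control, where it was not well above background, and 18.4, 352 and 337 at days 4, 6 and 8. S100a9 gave 2.13, not well above background either, and then 130, 127 and 152. Coro1a rose by 1.12 and Lyz2 had a change of -2.58 at day 8. Of 5 cardiomyocyte markers, 2 were so in the control and 4 on each later array, with Actc1 on none. Their summed signal was 4748 in the control and 1814, 2641 and 1621 at days 4, 6 and 8. Tnnt2 made up most of it, with 4714 in the control and 1554 at day 8. Myh6 and Myl7, not well above background in the control, gave only 13.1 to 29.0 on the later arrays. The part of these other cell types in the results below was not tested. In RNA from whole cultures, fewer cells of a type and less RNA per cell cannot be told apart.

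Of the 46 member genes, 34 were well above background on at least 1 array and 26 on all 4. Of all 22295 named genes, 16694 were so on at least 1 array, a share close to that of the members. On all 4 arrays, 14555 of the 22295 had a probe well above background, a larger share than that of the members. The number of members on a single array was 29 on each of the 4, so the count stayed level while its makeup moved. Mmp1b and Mmp10 were well above background in the control only. Mmp13 and Adamts18 were so at day 4 only, and Mmp28 at day 8 only. Adamts6 was so at days 6 and 8, Mmp9 at days 4, 6 and 8, and Mmp16 in the control and at day 6. The 12 genes that were not well above background on any array were Mmp1a, Mmp7, Mmp8, Mmp12, Mmp20, Mmp21, Mmp25, Adamts3, Adamts13, Adamts16, Adamts19 and Adamts20. They include the collagenase of neutrophils (Mmp8), the metalloelastase of macrophages (Mmp12), the tooth enamel protease (Mmp20) and the protease of von Willebrand factor (Adamts13).

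Of these 12 genes, 5 lie in a single stretch of chromosome 9. Mmp13, Mmp12, Mmp1b, Mmp3, Mmp1a, Mmp10, Mmp8, Mmp27, Mmp20 and Mmp7 follow each other there, with probes between positions 7282762 and 7697700 of mm9, and these 10 members are the only protein-coding genes of the stretch in the RefSeq table. In this cluster 5 of 10 genes were well above background on some array and 2, Mmp3 and Mmp27, on all 4. Of the other 36 members, 29 were so on some array and 24 on all 4. Of all 22295 named genes, 16694 were so on some array and 14555 had a probe that was so on all 4. Within the cluster 4 genes were above background in the control and 2 at day 8.

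**Figure D1:**
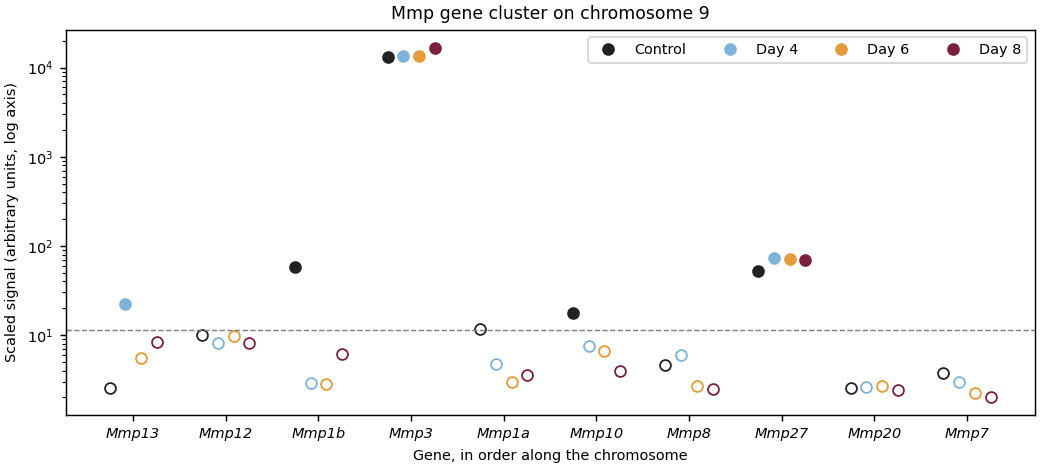
Scaled signal (arbitrary units, log axis) of the brightest probe of each of the 10 Mmp genes of the chromosome 9 cluster, in their order along the chromosome, with 1 point per array. Filled points were well above background, open points were not, and the dashed line is the highest of the floors of the 4 arrays, 11.4. Mmp3 and Mmp27 are filled on all 4 arrays, Mmp1b and Mmp10 in the control only, Mmp13 at day 4 only, and the other 5 genes on none; heights of different probes are not comparable.

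The promoters of the cluster were set beside those of the other members. Promoter sequences from 250 bases before to 50 after the start were given in a RefSeq table of build GRCm38.p6 for 32 of the 46 members. The members without a sequence all lay outside the cluster, and their promoters were not searched. They were Mmp2, Mmp9, Mmp16, Mmp17, Mmp19, Adamts4, Adamts5, Adamts6, Adamts7, Adamts8, Adamts10, Adamts15, Adamts16 and Adamts19. The AP-1 motif TGAGTCA, searched on both strands so that TGACTCA counts as well, was in promoters of 7 of the 10 cluster genes and of 0 of the 22 other members with a promoter sequence at hand, against 5.95% of all 27025 genes. TATAAA, also searched on both strands, was in 9 of the 10 cluster genes and in 2 of the 22 others, Mmp21 and Adamts1, against 15.7% of all genes. The 5 stretches printed next carry both motifs and were chosen to show genes detected on all arrays, on the control, at day 4 and on none. Each is the 110 bases that end just before the start, read 5′ to 3′ on the strand of the gene, with both motifs in capitals.

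Mmp13, chr9:7272404-7272513, plus strand: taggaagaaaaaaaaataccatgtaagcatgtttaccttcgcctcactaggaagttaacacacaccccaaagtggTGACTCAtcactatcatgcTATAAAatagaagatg
Mmp1b, chr9:7388027-7388136, minus strand: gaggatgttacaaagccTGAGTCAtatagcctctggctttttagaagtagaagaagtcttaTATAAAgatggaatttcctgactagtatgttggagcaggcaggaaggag
Mmp3, chr9:7445712-7445821, plus strand: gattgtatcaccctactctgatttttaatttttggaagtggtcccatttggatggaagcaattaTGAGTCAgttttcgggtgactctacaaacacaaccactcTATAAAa
Mmp1a, chr9:7464031-7464140, plus strand: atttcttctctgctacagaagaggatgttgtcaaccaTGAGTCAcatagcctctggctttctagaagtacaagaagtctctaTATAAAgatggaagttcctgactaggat
Mmp10, chr9:7502232-7502341, plus strand: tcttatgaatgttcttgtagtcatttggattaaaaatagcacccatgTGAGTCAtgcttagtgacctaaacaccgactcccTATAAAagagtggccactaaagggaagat

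The first base of the AP-1 letters lay 35 bases before the start in Mmp13, 46 in Mmp3, 63 in Mmp10, 73 in Mmp1a and 93 in Mmp1b. The first base of TATAAA followed it after 19 bases in Mmp13, 34 in Mmp10, 39 in Mmp3, 44 in Mmp1b and 45 in Mmp1a. These genes did not share a pattern on the arrays. Mmp3 was well above background on all 4 arrays, Mmp1b and Mmp10 in the control, Mmp13 at day 4 and Mmp1a on none. The motifs did not overlap in these stretches. The E-box letters CACGTG were searched in the promoters as well. They were in 2 of the 32 members, Mmp7 and Adamts17, against 8.09% of all genes. A match is a description of the letters and not a binding site.

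Against the control, 20 members passed 2-fold on at least 1 day, which is what rose and fell mean here, and 10 were measured on all arrays and stayed within 2-fold on all 3 days. The other 4, Mmp10, Mmp28, Adamts12 and Adamts18, did not pass 2-fold. On some days Mmp10, Mmp28 and Adamts18 had a bound only or no value, so a larger change cannot be told from these arrays. Adamts12 had 1 probe measured on all 3 days, between -0.55 and -0.29, and another with a bound or no value. At day 4, 8 members rose and 9 fell, which was 23.5% and 26.5% of the 34, against 9.87% and 8.17% of all 16694 genes. At day 6, 10 rose and 6 fell, or 29.4% and 17.6%, against 10.9% and 9.85% of all genes. At day 8, 8 rose and 5 fell, or 23.5% and 14.7%, against 12% and 10.5%. Scaled to the array median, the split at day 8 was 6 and 6 of the 34, beside 8.99% and 15.8% of all genes. With normexp correction and quantile normalization it was 3 and 3 of the 34, beside 6.38% and 6.49% of all genes. By family, day 8 had 3 rises and 3 falls among the 16 Mmp genes well above background on some array, 4 and 1 among 14 Adamts genes, and 1 and 1 among the 4 Timp genes. The members moved in both directions, so their median change stayed near 0, at 0.12, 0.12 and 0.03 on the successive days, beside -0.02, -0.04 and -0.03 over all genes. The median size of a change, whatever its sign, was 1.03, 1.03 and 0.75 in the members and 0.39, 0.44 and 0.47 over all genes.

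In all, 11 members passed 2-fold the same way on all 3 days. The 6 that rose were Mmp2, Mmp11, Mmp15, Adamts8, Adamts15 and Timp4, beside 7.47% of all genes that did so. The 5 that fell were Mmp1b, Mmp16, Mmp17, Adamts9 and Timp1, beside 6.61% of all genes. The 10 that were measured and within 2-fold on every day ran from -0.75 for Mmp19 to 0.82 for Mmp24.

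**Figure D2:**
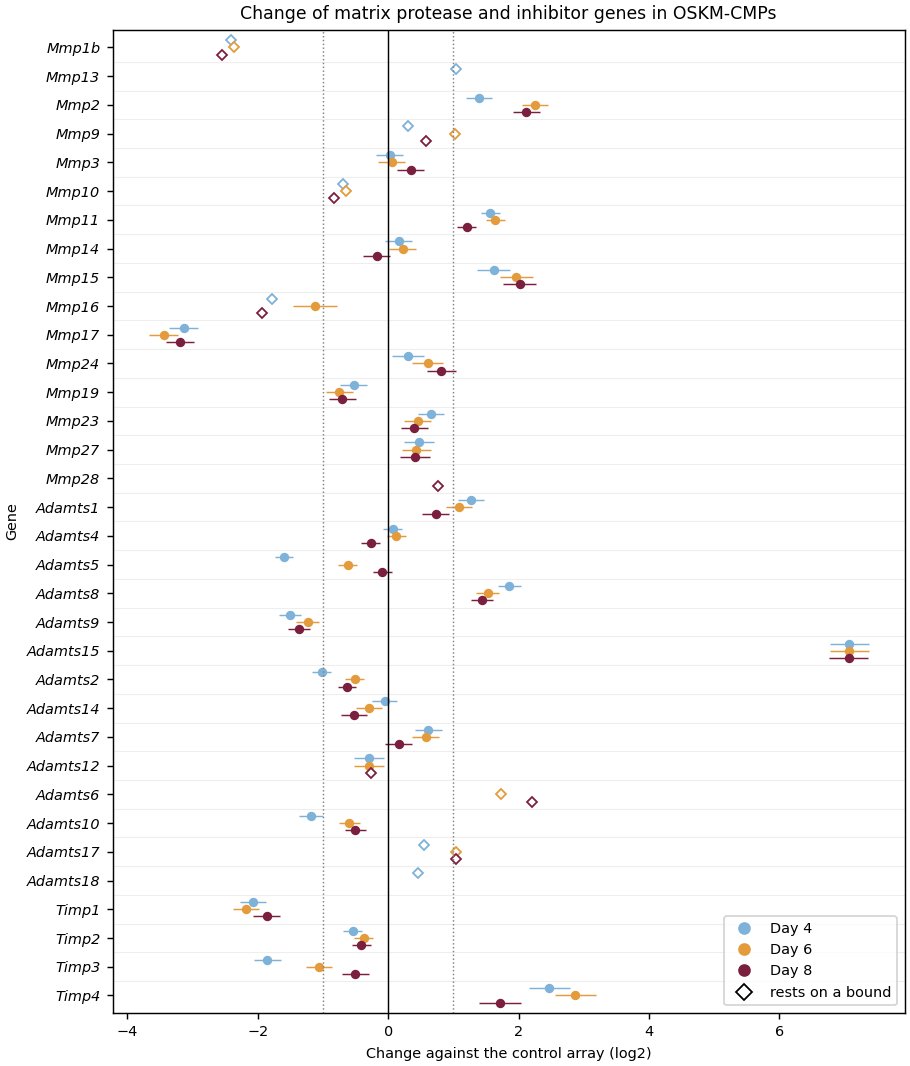
Change against the control array (log2) at days 4, 6 and 8 for the 34 members well above background on at least 1 array, where a change could be given. Bars are 1 SD of the array error, open diamonds rest on a bound because 1 of the arrays was not well above background, and dotted lines mark 2-fold; Adamts15 stands at 7.07 on all 3 days, and every other plotted value lies between -3.45 and 2.87.

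Of the inhibitors, Timp1 and Timp3 fell, Timp4 rose and Timp2 stayed within 2-fold. Timp1, a secreted inhibitor of most soluble Mmps, had a signal of 166256 in the control and 39507, 36674 and 45668 at days 4, 6 and 8. All 3 OSKM-CMP arrays were thus below the control, by -2.07 ± 0.20, -2.18 ± 0.20 and -1.86 ± 0.20, or 4.21-, 4.53- and 3.64-fold. Timp3, which binds to the matrix, had a signal of 65554 in the control and 18144, 31458 and 46178 at days 4, 6 and 8. It was lowest at day 4 and higher at each later day, with changes of -1.85 ± 0.20, -1.06 ± 0.20 and -0.51 ± 0.20, so that it fell at days 4 and 6 and was within 2-fold at day 8. From day 4 to day 8 Timp3 rose by 1.35 ± 0.20. With quantile normalization, with or without normexp, its change at day 6 was within 2-fold.

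Timp4, the inhibitor that is best known from the heart, had a signal of 17.6 in the control and 97.4, 129 and 57.9 at days 4, 6 and 8. It rose by 2.47 ± 0.32, 2.87 ± 0.31 and 1.72 ± 0.32, and from day 6 to day 8 it fell again by 1.15 ± 0.22. Its control signal was near the floor, the lowest signal well above background on an array, which was 10.1 to 11.4, and with normexp correction and quantile normalization it passed 2-fold at day 6 alone. Timp2, which inhibits Mmps and also helps Mmp14 to activate the precursor of Mmp2, was read by 2 probes that differed. The probe at chr11:118163146-118163205 of mm9 gave 296872 in the control and 275200, 280688 and 288458 at days 4, 6 and 8. The probe at chr11:118171964-118178741 gave 58055, 29537, 36603 and 33683 in the same order. The first was nearly level, between -0.11 and -0.04, and the second was lower on all 3 days, between -0.97 and -0.67. Their mean change was -0.54 ± 0.14, -0.37 ± 0.14 and -0.41 ± 0.14.

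**Figure D3:**
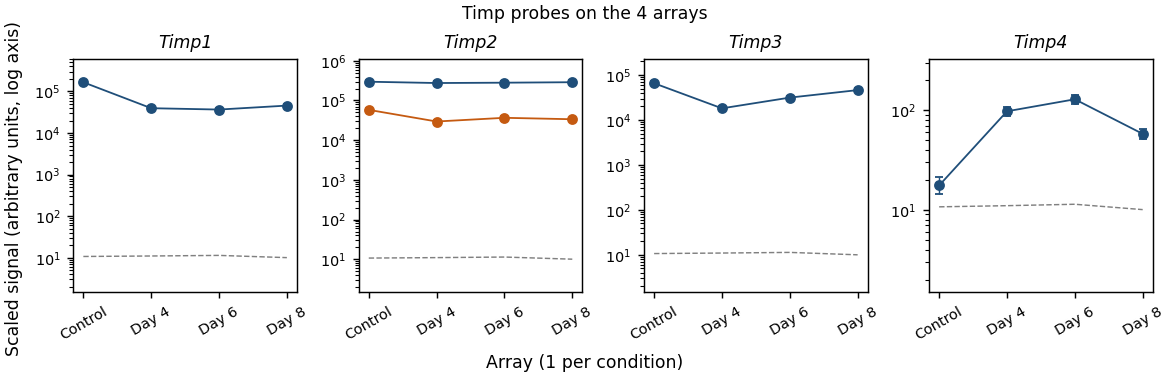
Scaled signal (arbitrary units, log axis) of the Timp probes on the control, day 4, day 6 and day 8 arrays, with bars of 1 SD of the array error; where a gene had 2 probes, the colors tell them apart. Filled points were well above background and the dashed line is the floor of each array; Timp1 is below its control on all 3 days, Timp3 climbs back from 18144 at day 4 to 46178 at day 8, and Timp4 peaks at 129 on day 6.

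The gelatinases, which cleave denatured collagen and the collagen of basement membranes, rose on all 3 days (Mmp2) or at day 6 (Mmp9). Mmp2 had a signal of 7665 in the control and 20091, 36480 and 33284 at days 4, 6 and 8. It rose by 1.39 ± 0.20, 2.25 ± 0.20 and 2.12 ± 0.20, or 2.62-, 4.76- and 4.34-fold, and stayed past 2-fold under all 9 alternatives to the processing. Mmp9 was printed in 10 spots per array and gave 3.03 in the control and 13.3, 21.9 and 16.0 at days 4, 6 and 8. Of its spots that were used, 0 of 9 were well above background in the control, 6 of 9 at day 4, 10 of 10 at day 6 and 8 of 9 at day 8. Because the control gives a bound only, Mmp9 was higher by at least 1.24-, 2.04- and 1.49-fold on the 3 days. S100a8 and S100a9, from the list of 13 leukocyte markers, were likewise not well above background in the control and were so on the 3 later arrays. Others of that list went the other way. Lyz2 had changes of -3.18, -3.53 and -2.58 on the 3 days, and Tyrobp was well above background in the control only. On each day 3 of the 13 rose and 1 fell. The part of leukocytes in the values of Mmp9 was not tested. The bound of Mmp9 at day 6 was under 2-fold with quantile normalization, with or without normexp, and with the array median.

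The stromelysins parted ways. Mmp11, or stromelysin 3, was read by 2 probes that moved together, one with 744 in the control and 2033, 2229 and 1648 at days 4, 6 and 8, and the other with 1792, 5730, 5818 and 4287. Their mean rose by 1.56 ± 0.14, 1.64 ± 0.14 and 1.20 ± 0.14, and the last of these was within 2-fold when scaled to the array median. Mmp3, or stromelysin 1, was level, with 13165, 13362, 13655 and 16692 and changes from 0.02 to 0.34. Mmp10, or stromelysin 2, had a signal of 17.9 in the control and 7.57, 6.62 and 3.92 at days 4, 6 and 8, not well above background, so that it was lower by at least 1.62-, 1.57- and 1.78-fold.

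Of the genes grouped here as collagenases, a class named for opening the triple helix of fibrillar collagen, Mmp1b and Mmp13 could be followed. Whether the product of each gene does so was not examined. Mmp1b gave 58.7 in the control and 2.88, 2.83 and 6.06 at days 4, 6 and 8, and only the control was well above background. It was lower by at least 5.33-, 5.16- and 5.84-fold on the 3 days. Mmp13 gave 2.54, 22.1, 5.55 and 8.43, and only day 4 was well above background. That put Mmp13 at least 2.06-fold above the control at day 4 and at least 2.2-fold above day 8. Both are dim probes, and with normexp correction and quantile normalization neither passed 2-fold against the control. For Mmp13 the same held with quantile normalization alone and with the array median.

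The membrane-type Mmps held both the largest fall measured on both arrays and a rise. The fall of Mmp1b is known by its bound only and may be larger. Mmp17, which is anchored to the membrane by a lipid, gave 468 in the control and 53.1, 42.9 and 51.2 at days 4, 6 and 8. Its changes were -3.14 ± 0.22, -3.45 ± 0.23 and -3.19 ± 0.22, falls of 8.81-, 10.9- and 9.15-fold, and was already at its low level at day 4. Counted from the lowest change of all genes, it ranked 129 of 16242 at day 4 and 164 of 16444 at day 8. Mmp16 gave 38.5 in the control and 11.2, 17.7 and 9.10 at days 4, 6 and 8, and days 4 and 8 were not well above background. It was at least 3.43-fold lower at day 4, 2.18-fold lower at day 6 and at least 3.83-fold lower at day 8. Mmp15 gave 23.3 in the control and 71.6, 91.1 and 94.3 at days 4, 6 and 8. It rose by 1.62 ± 0.26, 1.97 ± 0.25 and 2.02 ± 0.25. With normexp correction and quantile normalization Mmp15 and Mmp16 did not pass 2-fold on any day, while Mmp17 kept a change of -2.15 to -2.31. Mmp14, the cell surface activator of the Mmp2 precursor, was level with 3006, 3362, 3505 and 2662 and changes between -0.18 and 0.22. Mmp19, Mmp23, Mmp24 and Mmp27 stayed within 2-fold on every day, between -0.75 and 0.82. Mmp28 gave 2.96 in the control and 3.91, 6.47 and 18.2 at days 4, 6 and 8, and as day 8 alone was well above background it was at least 1.7-fold above the control there.

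**Figure D4:**
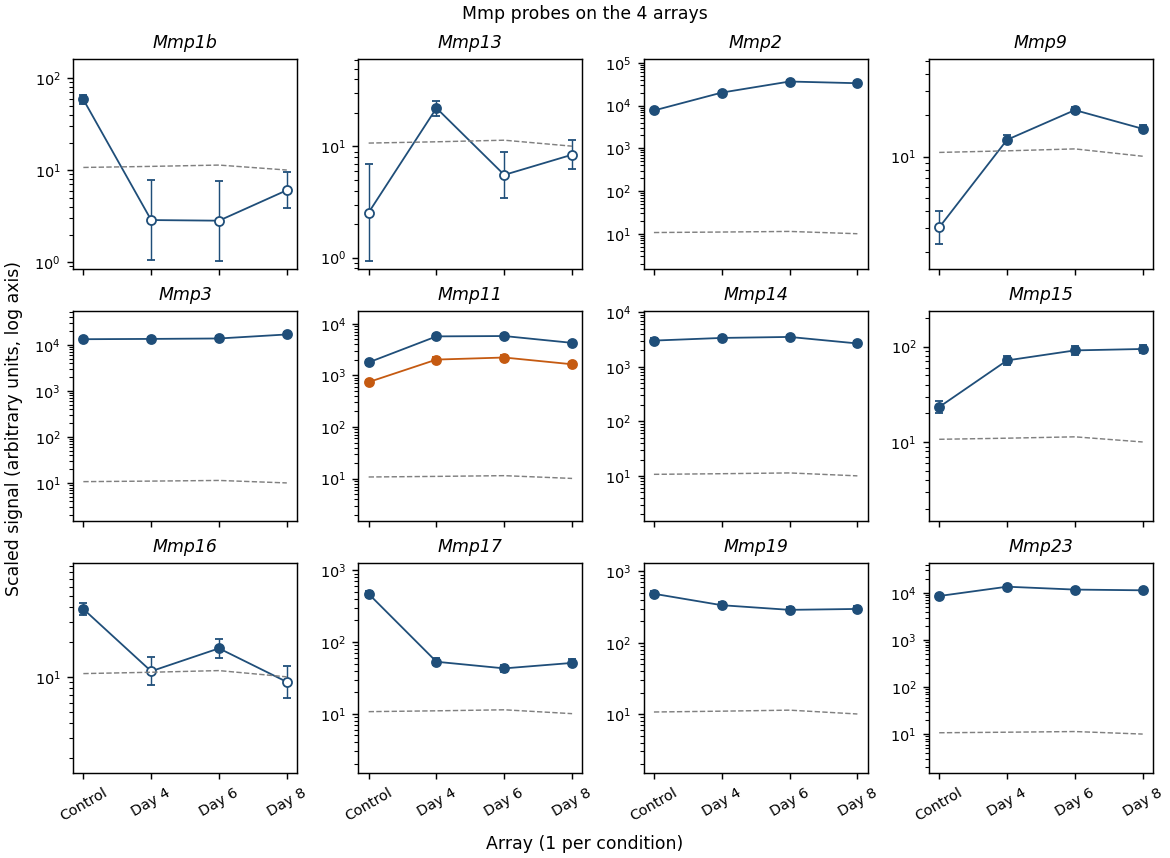
Scaled signal (arbitrary units, log axis) of 12 Mmp genes on the control, day 4, day 6 and day 8 arrays, with bars of 1 SD of the array error. Filled points were well above background, open points were not, and the dashed line is the floor of each array; Mmp2, Mmp11 and Mmp15 are higher on all 3 later arrays, Mmp17 is lower on all 3, and Mmp1b drops below the floor.

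Among the proteoglycan-cleaving Adamts genes, Adamts15 had the largest measured change of all members. Its probe, at chr9:30707033-30707092 of mm9, gave 19.5 in the control and 2627, 2625 and 2615 at days 4, 6 and 8. The 3 OSKM-CMP values differed by less than the array error, and the change was 7.07 ± 0.30 on each day, or 135-, 135- and 134-fold. Counted from the highest change of all genes, Adamts15 ranked 11 of 16242 at day 4, 18 of 16213 at day 6 and 29 of 16444 at day 8. The fold depends on a control signal near the floor, and with normexp correction and quantile normalization the change was 4.76 to 4.81.

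Adamts8, which lies next to Adamts15 on chromosome 9, was read by 2 probes that differed. The probe at chr9:30770384-30770443 of mm9 gave 30.4 in the control and 375, 251 and 176 at days 4, 6 and 8. The probe at chr9:30751050-30751109 gave 38.0, 40.5, 38.2 and 48.1. The first rose by 3.63, 3.04 and 2.53 and the second stayed between 0.01 and 0.34, so the mean rise of 1.86 ± 0.17, 1.53 ± 0.17 and 1.44 ± 0.17 rests on 1 probe. With normexp correction and quantile normalization that mean was within 2-fold at days 6 and 8.

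Adamts1 and Adamts5, neighbors on chromosome 16, went opposite ways at day 4. Adamts1, which cleaves versican and aggrecan, gave 5880 in the control and 14179, 12458 and 9743 at days 4, 6 and 8. It rose by 1.27 ± 0.20 and 1.08 ± 0.20 at days 4 and 6 and stood at 0.73 ± 0.20 at day 8, and the value at day 6 was within 2-fold with the array median. Adamts5, the main aggrecanase of mouse cartilage, gave 3139, 915, 1569 and 2199 with one probe and 1963, 733, 1654 and 2475 with the other. It fell by 1.60 ± 0.14 at day 4 and was at -0.62 ± 0.14 at day 6 and -0.09 ± 0.14 at day 8, a rise of 1.51 ± 0.14 from day 4 to day 8. The low at day 4 and the return by day 8 were seen with both probes.

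Adamts9 was lower in OSKM-CMPs, by an amount that depended on the probe. The probe at chr6:92723051-92723110 of mm9 gave 1467 in the control and 266, 393 and 348 at days 4, 6 and 8. The probe at chr6:92743256-92743315 gave 43.6, 29.8, 29.3 and 27.7. Both were below the control on all 3 days, and their mean changes were -1.51 ± 0.17, -1.24 ± 0.17 and -1.37 ± 0.17. With normexp correction and quantile normalization the mean at day 6 was just within 2-fold, at -0.99. Adamts4, the other classical aggrecanase, was level, between -0.27 and 0.12.

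The procollagen N-propeptidases, which trim fibrillar procollagens, gave 1 fall, that of Adamts2 at day 4. Adamts2 gave 98838 in the control and 52764, 76613 and 76020 at days 4, 6 and 8 with one probe, and 1512, 689, 954 and 817 with the other. Its mean change was -1.02 ± 0.14 at day 4, just past 2-fold, then -0.52 ± 0.14 and -0.63 ± 0.14. The call at day 4 was lost with quantile normalization, with or without normexp, and with the brightest probe alone. Adamts14 lay between -0.52 and -0.06.

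Of the other Adamts genes, Adamts6 and Adamts17 rose and Adamts10 fell. Adamts10, which is tied to fibrillin microfibrils, gave 367 in the control and 133, 183 and 171 at days 4, 6 and 8 with one probe. Its other probe gave 38.8, 20.8, 34.0 and 41.4. Both were lowest at day 4, where the mean fell by 1.18 ± 0.18, and at day 8 one stood at -1.10 and the other at 0.09. With the brightest probe alone Adamts10 passed 2-fold on all 3 days, and with normexp correction and quantile normalization it was within 2-fold at day 4.

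Adamts6, a close relative of Adamts10, gave 7.03 in the control and 12.6, 35.6 and 49.4 at days 4, 6 and 8, and the first 2 arrays were not well above background. It was at least 3.32-fold above the control at day 6 and at least 4.61-fold at day 8. From day 4 to day 8 the rise was at least 3.92-fold. Adamts17 gave 2.49, 27.2, 45.0 and 41.6 with a probe that was not well above background in the control, and 29.4, 24.6, 29.9 and 32.0 with a probe that was level. The first was at least 2.53-, 4.19- and 3.88-fold above the control, and the mean of both was at least 2.06-fold at day 6 and at least 2.05-fold at day 8. That mean was under 2-fold with 5 of the 9 alternatives, and the bound of Adamts6 was under 2-fold with normexp correction and quantile normalization. Adamts7, which cleaves the cartilage protein Comp, lay between 0.16 and 0.61. Adamts12, which cleaves Comp as well, had a mean change of -0.29 and -0.30 at days 4 and 6 and one that rests in part on a bound at day 8. Adamts18 could be compared at day 4 only, where it was at least 1.37-fold above the control.

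**Figure D5:**
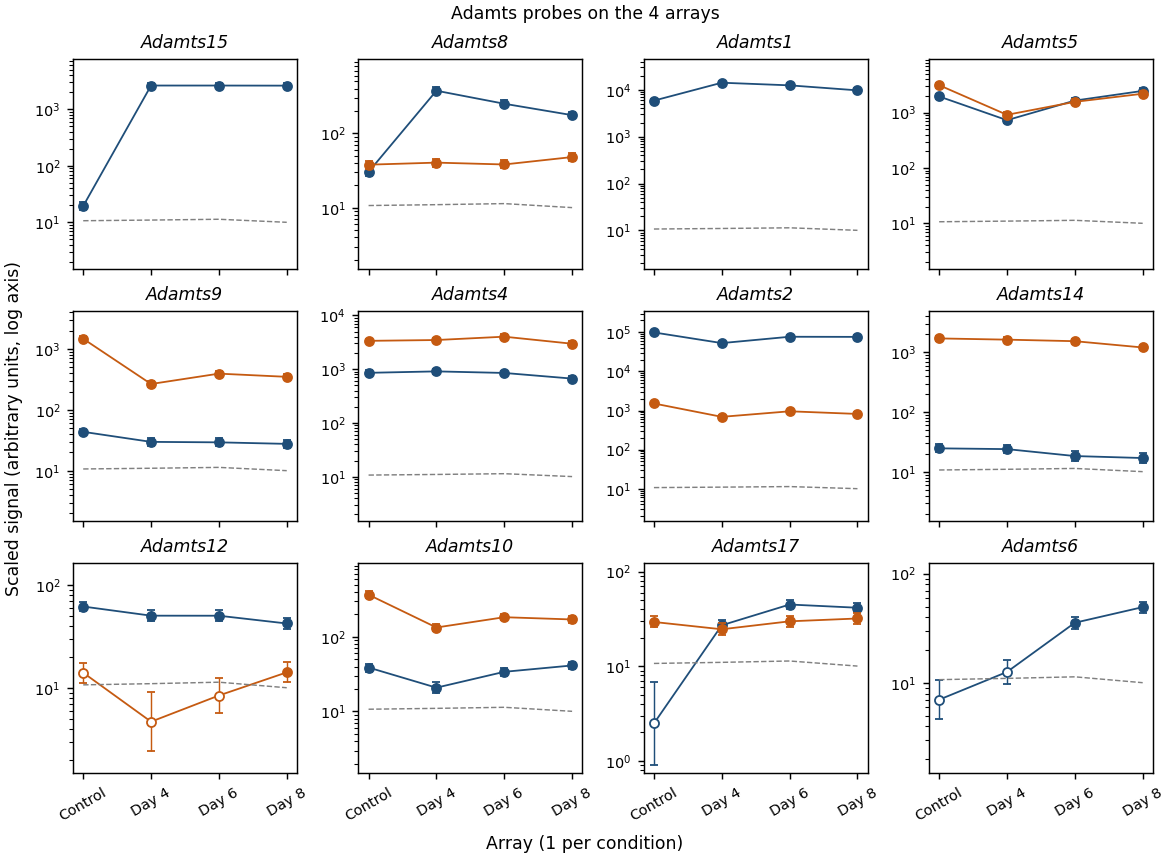
Scaled signal (arbitrary units, log axis) of 12 Adamts genes on the control, day 4, day 6 and day 8 arrays, with bars of 1 SD of the array error; where a gene had 2 probes, the colors tell them apart. Filled points were well above background, open points were not, and the dashed line is the floor of each array; Adamts15 steps from 19.5 to 2627 by day 4, one probe of Adamts8 rises and the other is level, and Adamts5 is lowest at day 4 with both probes.

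Between the OSKM-CMP arrays few members passed 2-fold. From day 4 to day 8, 3 of the 34 members rose (Adamts5, Adamts6 and Timp3) and 1 fell (Mmp13), against 3.56% and 3.13% of all genes. Adamts6 was the member that rose from day 4 to day 6, where 1.99% of all genes did, and 0 members fell beside 1.43% of all genes. Timp4 was the member that fell from day 6 to day 8, where 0.461% of all genes did, and 0 members rose beside 1.1% of all genes. Of the enzymes, Mmp2, Mmp11, Mmp15, Adamts8 and Adamts15 rose on all 3 days, and Mmp1b, Mmp16, Mmp17 and Adamts9 fell on all 3. Of the inhibitors, Timp1 fell and Timp4, near the floor in the control, rose on all 3 days. Timp3 fell at days 4 and 6. Mmp14 and Timp2 were within 2-fold on all 3 days.

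Other genes of matrix proteolysis were taken from a list of 43, of which 39 were well above background on at least 1 array. On each of the 3 days 6 of them rose and 11 fell, which was 15.4% and 28.2% of the 39, against 9.87% and 8.17% of all genes at day 4, 10.9% and 9.85% at day 6 and 12% and 10.5% at day 8. Their median change was -0.35, -0.31 and -0.35, beside -0.02, -0.04 and -0.03 over all genes. Large falls at day 8 were those of Plau, Adam9 and Plaur. Plau, the urokinase activator of plasminogen, gave 127, 42.4, 29.1 and 18.6, a change of -2.77 ± 0.28 at day 8. Plaur, the receptor of Plau, fell by 2.10 ± 0.20 and Adam9, a membrane protease with a disintegrin domain, fell by 2.19 ± 0.20. Plau and its receptor were thus both lower on the 3 later arrays. The largest rises rest in part on bounds. Mme, the membrane protease neprilysin, was at least 16.6-fold above the control at day 8, with a mean signal of 12.2 in the control and 206 at day 8. Adamtsl1, a relative of the Adamts genes without a protease domain, was at least 6.41-fold above it, and its 3 probes ranged from 1.12 to 5.21. The 4 largest rises measured on both arrays were Htra3 at 2.28 ± 0.20 and Htra1 at 2.21 ± 0.20, both secreted serine proteases, Ctsk, the collagen-cleaving cathepsin, at 1.40 ± 0.20, and Adam8 at 1.02 ± 0.20. Htra1 climbed through the series, with 6132 in the control and 9463, 19789 and 28332 at days 4, 6 and 8.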

How the data were processed

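Total RNA of the CMP control and of OSKM-CMPs at days 4, 6 and 8 was hybridized to SurePrint G3 Mouse GE arrays, 1 per condition, so the number of arrays limits the precision. The deposited scanner files hold, per the file headers from Feature Extraction 10.7.3.1 (the submitters' processing notes name 9.5.3), a background-subtracted intensity for each of 62976 spots, its error and quality flags. The authors' table, normalized in GeneSpring, holds log2 values that equal log2 of that intensity minus a constant per array, with a 75th percentile near 0.

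Control spots (3671) and outlier spots (87 to 106 per array) were left out. The log2 intensities of the spots of a probe were averaged and lowered by the 75th percentile of their array. Scaled signals were set back to the mean of the 4 percentiles. A gene took the mean change of its kept probes, those above background (by the flag for well above it) on 1 or more arrays. Where 1 of the arrays compared was not well above background, the change is a bound: the dim side was set to the floor of its array, the lowest signal there of any probe that passed (10.1 to 11.4 as scaled signal), or to its own signal if higher. Genes past 2-fold were counted, and bounds counted as they stand. Probes were named by the files and matched to RefSeq (GRCm38.p6) by accession for 26762, by symbol for 3819 and by synonym for 645, and 24455 had no match; 16694 genes were tested. Probe positions are those of the files (mm9), and mm9 gene models were not used here.

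Values on each array are given for all Timp genes and for members past 2-fold on any day. Of the other matrix protease genes, the rule names the 4 largest rises and falls at day 8, measured on both arrays. These are given by their change at day 8, with values on each array for Plau and Htra1 only. A few level members, and Mme and Adamtsl1 with larger bounds, were named besides. One gene that this rule names is not reported here. The members, the lists and the motifs were chosen with earlier results of these data known. Alternatives were quantile normalization, the same after normexp correction (offset 50), scaling to the array median, the authors' log2 values, no filter on dim probes, probes well above background on all 4 arrays, dim values set to the floor, the brightest probe, outlier spots kept, and thresholds of 1.5- and 3-fold. The code was tested on simulated data. Python 3.11.15, numpy 2.4.6, pandas 2.3.3, matplotlib 3.10.9, R 4.3.3 and limma 3.58.1 were used.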

Additional observations from a re-analysis of the deposited data

How the results depend on the processing

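No named member turned direction past the threshold under the 9 alternatives: of 528 values of named members, 432 moved by less than the array error, 96 by more, and 0 of the called values changed sign. The authors' values, dim values set to the floor and outlier spots kept each moved 0 values and left 60 the same. The authors' values differ by a constant per array only, and the bounds already use the floor, so these could hardly move a change. Normexp correction with quantile normalization moved 39 and left 21. Among changes to the processing, normexp correction with quantile normalization lowered the counts, to 5 that rose and 5 that fell at day 4. They were 5 and 2 at day 6 and 3 and 3 at day 8. Of all genes it left 5.16% that rose and 4.71% that fell at day 4. The shares of all genes were 6.03% and 5.73% at day 6 and 6.38% and 6.49% at day 8. The offset of 50 added to every signal compresses dim probes. At 3-fold, 4, 6 and 5 members rose at days 4, 6 and 8, and 3 fell at day 6. At 1.5-fold, 10 fell at day 6 and 8 at day 8. No share of all genes at these thresholds is given here, so these counts cannot be set against all genes. Kept to probes that passed the background flag on all 4 arrays, 3 of 26 members fell at day 8, since fewer genes were tested. Of all genes so kept, 10.3% fell at day 8. Scaled to the array median, the median change of the members at day 8 was -0.23, and that of all genes moved to -0.16, -0.17 and -0.30 at days 4, 6 and 8; relative to it the members stood at 0.07, as with the 75th percentile. Slide as a block could not be fitted with 1 array per group and was not run. No paired analysis was possible because each group holds 1 array, so the result comes from no test.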
